A study of Mus musculus with 16 samples.

Results

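The genes described here serve protein folding in the endoplasmic reticulum (ER) and the stress responses attached to it. They were chosen by name, as 43 of the 22612 genes in the expression table, and all 43 were found there. By role they comprised 15 ER chaperones and co-chaperones, 4 stress sensors and their direct effectors, 8 genes of ER-associated degradation (ERAD), 7 genes of the translocon, and 9 genes of the ATF4 branch. The values are RNA sequencing of liver from male C57BL/6 mice, bought at 7 weeks of age and given 1 of 4 diet regimens for 16 weeks. The chow group ate a diet with 11% of its energy from fat, and the high-fat group ate a diet with 58%. Chow-alternating mice switched between this high-fat diet and chow at intervals of 2 weeks. Ketogenic-alternating mice switched, at the same intervals, between it and a ketogenic diet that drew 90.5% of its energy from fat. The mice carried no engineered allele named in the labels, and every liver was collected after fasting through the night. Each group had 6 mice and 4 libraries. Whether each library is 1 animal is not stated, so the p-values rest on the spread among these libraries, which may be technical. They also do not say which diet an alternating group ate last before collection.

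Secreted and membrane proteins enter the ER through the Sec61 channel and are folded there by chaperones, disulfide isomerases and lectins. Misfolded clients are pulled back to the cytosol and degraded, which is ERAD. When clients exceed the folding capacity, the unfolded protein response begins at sensors in the ER membrane: IRE1 (encoded by Ern1) splices Xbp1 mRNA, ATF6 is cleaved to a transcription factor, and PERK (encoded by Eif2ak3) phosphorylates the initiation factor eIF2. XBP1 and ATF6 are known to drive chaperone, translocon and ERAD genes. Phosphorylated eIF2 favours translation of ATF4, which drives genes of amino acid supply, redox control and feedback, and which other kinases also reach without ER stress as the integrated stress response. Hepatocytes export most plasma proteins and depend on this machinery.

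Expression is given as TPM, a length-scaled share of all transcripts that sums to the same total in every library, so sequencing depth is unknown. Tests were limma fits on log2(TPM + 1) over all genes that passed a filter of 1 TPM in at least 4 of the 8 libraries compared, with Benjamini-Hochberg adjustment over all of them. A member passed at an adjusted p below 0.05, and differences are on that log2 scale, which understates change in genes near 1 TPM. Between 10575 and 11695 genes reached 1 TPM per library. In 4 libraries, chow replicates 2 and 3 and high-fat replicates 1 and 2, the 20 highest genes held more than 33% of all TPM (33.5% to 38.8%), against 27.1% to 31.8% in the other 12. This share was 27.1% to 29.5% in ketogenic-alternating and 29.8% to 31.5% in chow-alternating libraries, without overlap. Mitochondrial transcripts held 13.6% and 18.4% of TPM in chow replicates 2 and 3, and 8.61% to 11.3% in the other libraries. The part of these shares in the results below was not tested. Values without the 4 libraries over 33% are given for pairwise calls and for several role medians that changed. The hepatocyte markers were high in all libraries, with 9 of 10 found and a summed 82300 to 120000 TPM. Of 7 B and plasma cell markers, whose cells are rich in ER genes, the sum was 4.12 to 12.1 TPM. Of 8 markers of exocrine pancreas, another tissue rich in ER genes, 6 stayed under 1 TPM in every library and 3 of these were at 0, while Cela1 reached 32 TPM and Cela2a 2.47 TPM. In bulk liver, fewer cells of a type and less RNA per cell cannot be told apart.

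Several of these genes carry known stress elements just upstream of their start, and 6 stretches are shown because they hold the motifs of the chaperone side or of the ATF4 side. The 250 bases before the RefSeq start (GRCm38.p6) were searched on both strands for 4 motifs: the ER stress element (CCAAT, 9 bases of any kind, CCACG), bound by ATF6 with NF-Y; the ER stress element II (ATTGG, 1 base, CCACG); the unfolded protein response element (TGACGTGG), bound by XBP1 and ATF6; and the ATF4 element (TGATGCAA). Both ER stress elements contain CCACG and either CCAAT or its complement ATTGG, and no match in a member overlapped another. Promoters were in the RefSeq table for 36 of the 43 members. Sequences are written 5′ to 3′ on the strand of the gene, with matched letters in capitals. Hspa5 is read from chr2:34771840-34772089 (+ strand), Calr from chr8:84846932-84847181 (- strand), Creld2 from chr15:88819396-88819645 (+ strand), Syvn1 from chr19:6046326-6046575 (+ strand), Herpud1 from chr8:94386179-94386428 (+ strand) and Chac1 from chr2:119350992-119351241 (+ strand).
Hspa5: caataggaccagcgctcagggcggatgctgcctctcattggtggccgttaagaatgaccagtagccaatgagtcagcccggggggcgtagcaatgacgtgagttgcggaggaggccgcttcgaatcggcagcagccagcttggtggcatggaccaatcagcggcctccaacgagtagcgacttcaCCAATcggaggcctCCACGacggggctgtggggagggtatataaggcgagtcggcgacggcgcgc
Calr: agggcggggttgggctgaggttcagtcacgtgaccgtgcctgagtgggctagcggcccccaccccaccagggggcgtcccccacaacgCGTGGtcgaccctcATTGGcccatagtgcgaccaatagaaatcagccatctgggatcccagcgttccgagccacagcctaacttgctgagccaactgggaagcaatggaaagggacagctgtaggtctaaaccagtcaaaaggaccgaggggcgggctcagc
Creld2: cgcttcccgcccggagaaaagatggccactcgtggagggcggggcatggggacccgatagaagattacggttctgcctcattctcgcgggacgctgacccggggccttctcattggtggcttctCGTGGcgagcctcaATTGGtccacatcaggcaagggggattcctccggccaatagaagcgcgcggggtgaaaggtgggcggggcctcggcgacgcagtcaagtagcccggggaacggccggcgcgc
Syvn1: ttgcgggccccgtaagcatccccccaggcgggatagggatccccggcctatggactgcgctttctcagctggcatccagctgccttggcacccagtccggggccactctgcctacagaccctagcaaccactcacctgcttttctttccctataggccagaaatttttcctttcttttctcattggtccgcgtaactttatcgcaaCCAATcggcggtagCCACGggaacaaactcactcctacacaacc
Herpud1: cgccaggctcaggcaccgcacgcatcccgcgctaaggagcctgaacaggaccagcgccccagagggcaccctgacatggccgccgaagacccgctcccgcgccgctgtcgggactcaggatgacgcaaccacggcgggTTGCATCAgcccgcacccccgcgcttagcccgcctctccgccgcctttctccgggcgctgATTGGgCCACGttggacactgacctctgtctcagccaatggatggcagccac
Chac1: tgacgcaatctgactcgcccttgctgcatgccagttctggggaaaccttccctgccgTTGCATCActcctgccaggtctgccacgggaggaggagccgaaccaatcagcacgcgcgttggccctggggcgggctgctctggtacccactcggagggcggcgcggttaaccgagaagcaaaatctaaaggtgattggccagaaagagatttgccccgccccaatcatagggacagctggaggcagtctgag

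The ER stress element was found in 9 of the 36 member promoters (25%) and in 33 of all 27025 promoters of that length (0.122%). It lay at -65 to -47 in Hspa5 and at -44 to -26 in Syvn1, counted from the start site, and at -162 to -144 in Calr and -126 to -108 in Creld2 on the opposite strand. The other 5 promoters with it were those of Hsp90b1, which held 2 matches, and of Pdia6, Canx, Dnajc3 and Derl3. By role, 7 of the 9 belong to chaperones and 2 to ERAD, and none of the 8 matched ATF4 branch promoters held it. The ATF4 element was found in Chac1 (-193 to -186) and Herpud1 (-112 to -105), 2 of 36 members (5.56%), against 221 of all promoters (0.818%). Herpud1 alone among the members held the ER stress element II (-52 to -42), which 9 of all promoters (0.0333%) held. The unfolded protein response element was in 0 of 36 member promoters and in 136 of all (0.503%). These matches are letters in a window and were not measured as binding. Only exact matches were counted, so a variant of a motif in any of these promoters would be missed.

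Across the 4 diets most chaperones had their highest mean in the chow-alternating livers. The mean TPM was highest in the chow-alternating group for 14 of 15 chaperones, 5 of 7 translocon genes and 6 of 8 ERAD genes, but for 2 of 9 ATF4 branch genes. The ketogenic-alternating group held the highest mean of 5 of 9 ATF4 branch genes and of 3 of 4 sensors, and chow held that of 2 of the 9, Ppp1r15a and Sesn2. Most genes of any kind were above 0 in ketogenic-alternating livers, 79.5% of those tested against chow-alternating and 83% against high-fat livers. Chow held the lowest mean of 11 of 15 chaperones. In a test of any difference among the 4 groups (limma F test over 16 libraries), 7 members passed, beside a background of 3.87% of the 11450 genes tested. They were the chaperones Hspa5, Pdia4, Calr, Creld2 and Manf (adjusted p from 0.0179 to 0.0414) and the ATF4 branch genes Trib3 (0.0401) and Ppp1r15a (0.00965). No sensor, ERAD or translocon gene passed that test.

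**Figure D1:**
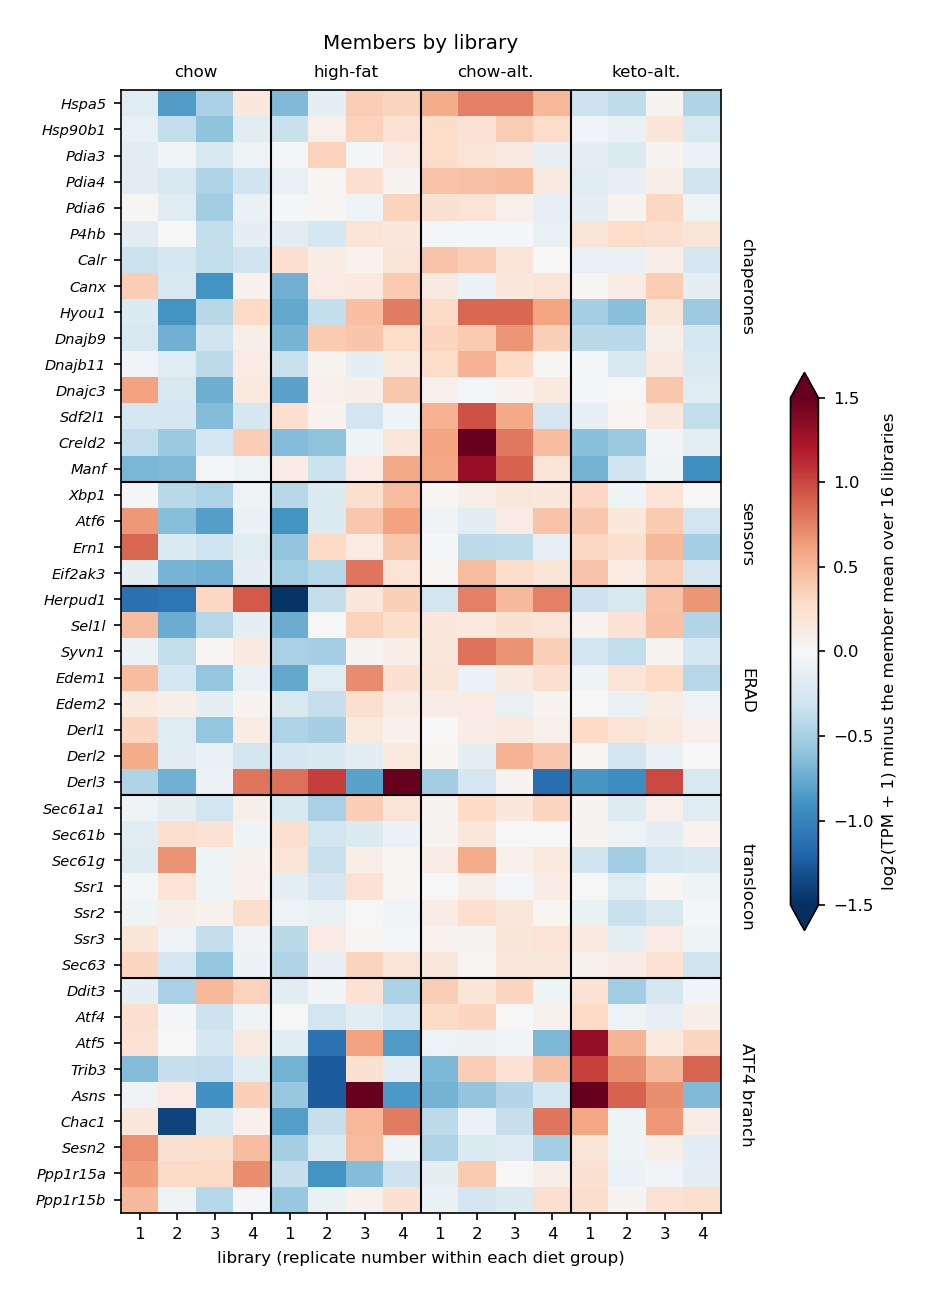
Each row is 1 of the 43 members and each column 1 of 16 libraries, grouped by diet; colour is log2(TPM + 1) minus the member's mean over the 16 libraries, red above and blue below, with the scale ending at 1.5 either way. The chaperone rows are mostly red in the 4 chow-alternating libraries, and chow replicates 2 and 3 and high-fat replicate 1 are blue over most rows.

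The clearest difference was between the alternating regimens. In ketogenic-alternating against chow-alternating livers, 8 members fell in the chosen fit, 6 of them chaperones, and no member rose. Among all 11002 genes tested, 5.04% passed in either direction and 0.727% passed as lower, while 79.5% of all genes had a difference above 0. Hspa5 (ENSMUSG00000026864, chr2:34771970-34777547), which encodes BiP, the main Hsp70 chaperone of the ER and a restraint on the stress sensors, measured 317, 364, 364 and 304 TPM in the chow-alternating libraries. In the ketogenic-alternating libraries it measured 173, 165, 221 and 158 TPM. Every chow-alternating library was above every ketogenic-alternating one, and also above every high-fat library (136, 196, 279 and 272 TPM) and every chow library (190, 120, 153 and 241 TPM). Hspa5 was 1.89-fold lower in ketogenic-alternating livers (179 ± 28.7 against 337 ± 31.5 TPM, SD, n = 4 each), a log2 difference of -0.92 with a standard error of 0.12 (limma, adjusted p = 0.00347). It passed with any 1 of the 8 libraries left out (adjusted p 0.00134 to 0.0189), and missed when all 16 libraries shared 1 estimate of the spread (0.0607).

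Another 3 chaperones and co-chaperones that fell were Hyou1, Dnajb9 and Pdia4. Hyou1 (chr9:44379490-44392369), a large Hsp70 relative that exchanges the nucleotide of BiP, measured 40.4, 60.2, 60.5 and 49.9 TPM in chow-alternating and 22.9, 20.8, 37.3 and 22.2 TPM in ketogenic-alternating livers. The groups did not overlap, and the log2 difference was -1.03 ± 0.19 (SE; limma, adjusted p = 0.0159). Dnajb9 (chr12:44205559-44210326), a J-domain co-chaperone that returns BiP to IRE1, measured 45.9, 48.0, 58.4 and 47.0 TPM against 27.2, 27.4, 38.9 and 30.2 TPM, a difference of -0.68 ± 0.13 (adjusted p = 0.0181). Pdia4 (chr6:47796141-47813430), a protein disulfide isomerase, measured 121, 122, 125 and 98.9 TPM against 79.2, 82.2, 95.1 and 73.0 TPM. Its groups came close at chow-alternating replicate 4 and ketogenic-alternating replicate 3 without overlapping, and the difference was -0.50 ± 0.11 (adjusted p = 0.0303).

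The largest chaperone differences were in genes of small ER-resident proteins. Manf (chr9:106838312-106891979), a secreted factor that binds BiP, measured 69.1, 115, 85.5 and 52.9 TPM in chow-alternating and 27.7, 37.3, 44.1 and 23.9 TPM in ketogenic-alternating livers, a log2 difference of -1.24 ± 0.24 (SE; limma, adjusted p = 0.019). Creld2 (chr15:88819646-88826683), a secreted protein with calcium-binding EGF-like domains, measured 31.4, 59.4, 36.0 and 28.4 TPM against 12.9, 13.5, 19.8 and 18.4 TPM, a difference of -1.18 ± 0.22 (adjusted p = 0.0167). In both genes chow-alternating replicate 2 was the highest of the 16 libraries. For Manf the annotation overlaps Rbm15b on the same strand (mean 4.2 TPM) and Dcaf1 on the opposite strand (7.52 TPM), so its reads may have been shared between genes.

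Outside the chaperones 2 more members fell in this comparison. Syvn1 (chr19:6046576-6053712), the ubiquitin ligase at the centre of ERAD, measured 31.9, 50.4, 45.7 and 36.4 TPM in chow-alternating and 23.1, 21.7, 29.1 and 23.4 TPM in ketogenic-alternating livers, a log2 difference of -0.72 ± 0.15 (SE; limma, adjusted p = 0.0259). Exons of Mrpl49 (27.4 TPM) overlap Syvn1 on the opposite strand, and whether counting used the strand is not given in the sources used here. Sec61g (chr11:16500530-16508484), the smallest subunit of the translocation channel, measured 62.1, 84.9, 60.6 and 63.6 TPM against 46.5, 39.6, 47.6 and 49.0 TPM, a difference of -0.55 ± 0.12 (adjusted p = 0.0318). With 1 library left out, the number of members that passed ran from 2 to 13. It was 2 without chow-alternating replicate 2, chow-alternating replicate 3 or ketogenic-alternating replicate 2, 5 without ketogenic-alternating replicate 1, and 13 without ketogenic-alternating replicate 4. The members gained in that last fit were P4hb, Ern1, Atf5 and Sesn2, which were higher, and Ssr2, which was lower. The call of Sec61g was lost in 7 of the 8 fits with a library left out, that of Pdia4 in 5, of Syvn1 in 4, of Hyou1 and Dnajb9 in 3, of Manf in 2 and of Creld2 in 1.

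Of these members, Hspa5, Creld2 and Syvn1 were higher in every chow-alternating library than in any chow or high-fat library. Creld2 measured 15.6, 13.5, 16.9 and 26.6 TPM in chow and 12.6, 13.1, 19.5 and 23.1 TPM in high-fat livers, and Syvn1 26.6, 21.8, 28.9 and 31.1 TPM in chow and 20, 19.7, 29.2 and 30.5 TPM in high-fat livers. For the others the high-fat libraries reached into the chow-alternating range. Hyou1 measured 28.4, 17.1, 24.4 and 40.6 TPM in chow and 18.8, 25.3, 45.3 and 57.1 TPM in high-fat livers. Dnajb9 measured 30.8, 21.8, 29.5 and 38.8 TPM in chow and 22.1, 48.3, 49.1 and 44.4 TPM in high-fat livers, where replicate 1 was low. Manf measured 28.3, 28.6, 45.1 and 43.4 TPM in chow and 50.1, 36.5, 50.2 and 68.5 TPM in high-fat livers. Pdia4 measured 82.9, 91.0, 107 and 92.2 TPM in high-fat livers, above its chow range.

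**Figure D2:**
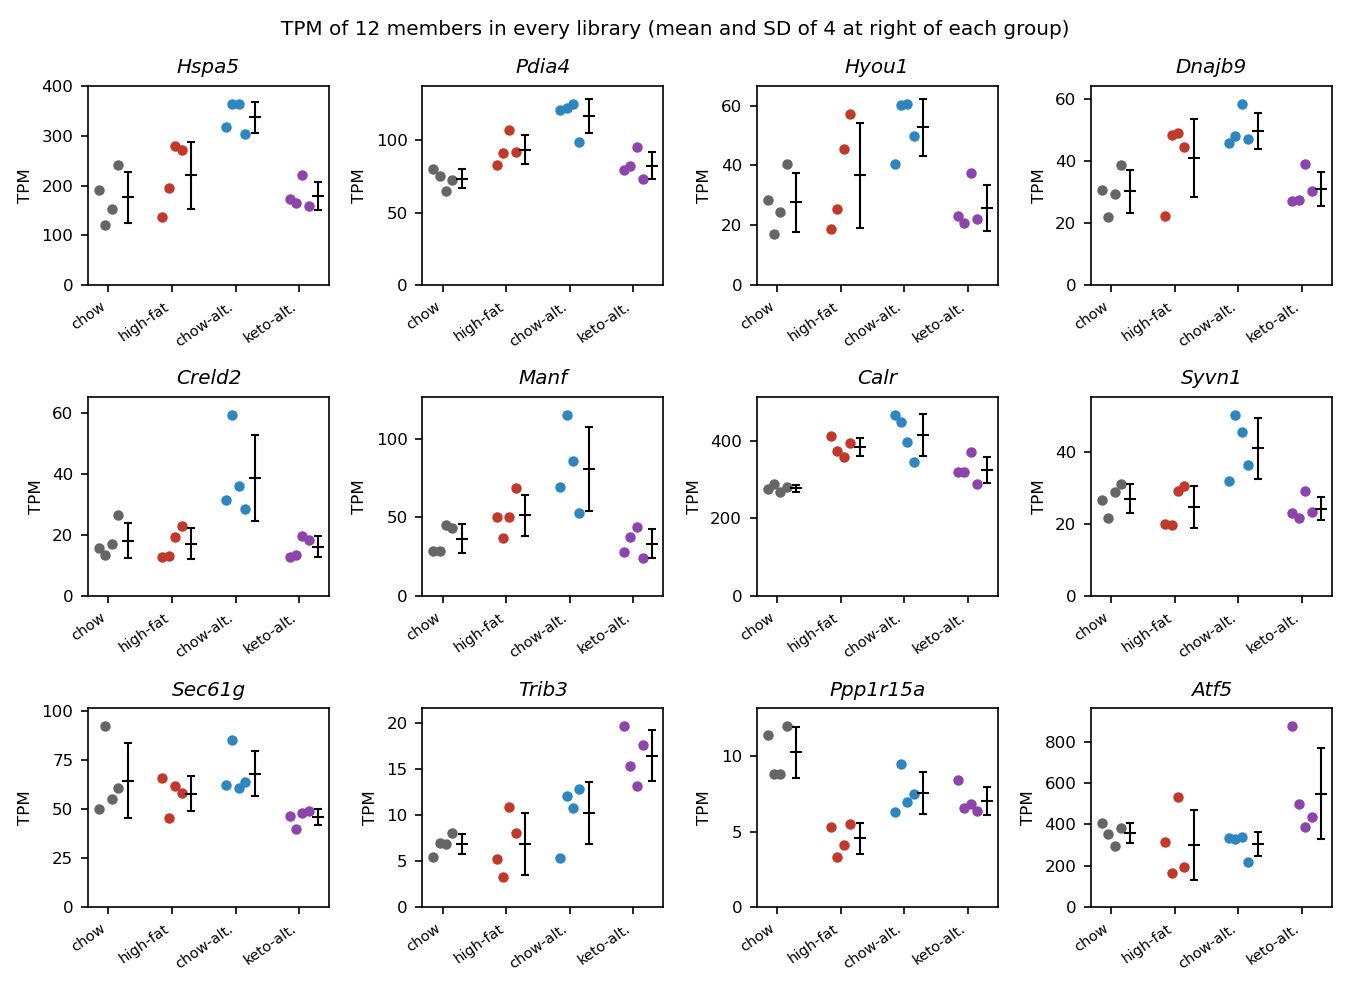
TPM of 12 members in every library, 4 points per diet group, with the mean and SD of the group in black at its right; each vertical axis starts at 0. Hspa5, Creld2 and Syvn1 are higher in all 4 chow-alternating libraries than in any of the other 12, while Trib3 is highest in the 4 ketogenic-alternating libraries.

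No ATF4 branch gene passed between the alternating regimens in the chosen fit. Of the 9, of which 8 were tested, 6 were above 0 and 3 below in ketogenic-alternating against chow-alternating livers, and 4 had an unadjusted p below 0.05, all of them higher. At that unadjusted limit 19 of the 42 members tested stood beside 29.0% of all genes. Trib3 (chr2:152337422-152344032), a pseudokinase induced by ATF4 that restrains AKT and ATF4 itself, measured 5.34, 12.1, 10.8 and 12.8 TPM in chow-alternating and 19.7, 15.4, 13.2 and 17.6 TPM in ketogenic-alternating livers. The groups did not overlap, and the log2 difference was 0.69 ± 0.23 (SE; limma, adjusted p = 0.0957). Atf5 (chr7:44812256-44816658), a liver-rich factor translated under stress like ATF4, measured 332, 329, 340 and 219 TPM against 876, 499, 386 and 436 TPM, also without overlap (0.79 ± 0.24, adjusted p = 0.0736). In chow Atf5 measured 406, 352, 293 and 384 TPM and in high-fat livers 313, 162, 531 and 193 TPM. Exons of Nup62 (7.5 TPM) overlap Atf5 on the opposite strand. Sesn2, which restrains mTORC1 and binds leucine, likewise did not overlap (3.58 ± 0.504 against 4.88 ± 0.628 TPM, SD, n = 4 each; adjusted p = 0.118). Without ketogenic-alternating replicate 4, Atf5 (limma, adjusted p = 0.0411) and Sesn2 (0.0493) passed as higher. The difference between the chaperone side and the ATF4 side was not itself tested.

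Over all 22 chaperone and translocon genes the median log2 difference between the alternating regimens was -0.33, with 21 of 22 below 0. Over the 9 ATF4 branch genes the median was 0.33, and over all genes tested it was 0.19. Scaling bears on this level: quantile normalization brought the median of all genes to -0.00318, that of chaperones and translocon to -0.38 and that of the ATF4 branch to 0.11, so both kept their sign. The chaperones alone had a median of -0.36, and the translocon genes one of -0.11, all 7 of them below 0. Separation was wider than the calls: 14 of the 43 members did not overlap between the groups, 10 lower and 4 higher, beside 16.8% of all genes. Higher in this sense, besides Trib3, Atf5 and Sesn2, was the chaperone P4hb, a protein disulfide isomerase that is also a subunit of prolyl hydroxylase, and the most abundant member. P4hb (chr11:120560298-120573253) measured 671, 676, 675 and 636 TPM in chow-alternating and 781, 827, 811 and 780 TPM in ketogenic-alternating livers, a difference of 0.27 ± 0.07 (SE; limma, adjusted p = 0.0597). P4hb was the only chaperone above 0 in this comparison. With a filter at 5 TPM it passed as higher (limma, adjusted p = 0.0491), as it did without ketogenic-alternating replicate 4 (0.0314). It measured 614, 684, 533 and 620 TPM in chow and 615, 569, 789 and 762 TPM in high-fat livers.

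Values of cell type markers also stand beside this comparison. The summed hepatocyte markers ran from 102000 to 112000 TPM in chow-alternating and from 83300 to 89800 TPM in ketogenic-alternating livers, without overlap, although 0 of the 9 passed singly. The 6 markers of sinusoidal endothelial cells summed to 81 to 120 TPM against 128 to 202 TPM, and 2 of them rose. None of the markers of red blood cells, exocrine pancreas, bile duct cells, stellate cells, neutrophils, lymphocytes (T, NK, B and plasma cells) or of resident or recruited macrophages passed between these groups. The part of cell composition in the chaperone differences was not tested.

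**Figure D3:**
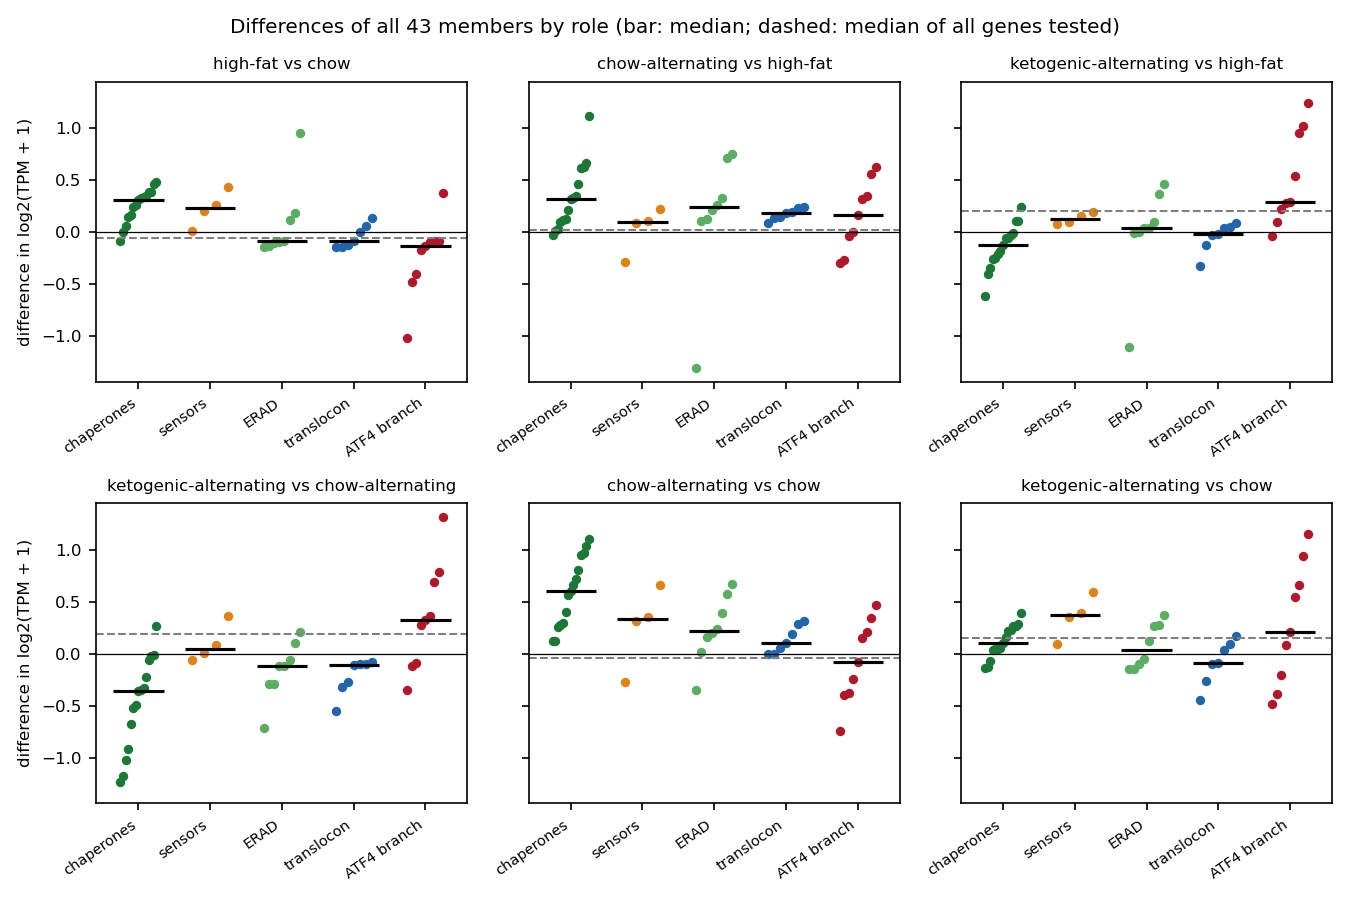
Differences in log2(TPM + 1) of all 43 members in the 6 comparisons, each dot a member, by role; black bars are the medians of a role and the dashed line the median of all genes tested. In the ketogenic-alternating against chow-alternating panel 14 of 15 chaperones and 7 of 7 translocon genes lie below 0, and the dashed line lies at 0.19.

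Against chow, Hspa5 and Pdia4 rose in the chow-alternating livers. All 15 chaperones were above 0, with a median log2 difference of 0.60 beside -0.04 over all genes. Among all 10862 genes tested 1.16% passed, and 0.644% of those tested passed as higher. Hspa5 was 1.96-fold higher than in chow (337 ± 31.5 against 176 ± 51.8 TPM, SD, n = 4 each; limma, adjusted p = 0.0338). Pdia4 measured 80.3, 75.6, 64.7 and 72.7 TPM in chow and was 1.58-fold higher in chow-alternating livers (adjusted p = 0.0303), with every chow-alternating library above every chow library. The groups did not overlap for 11 members that were higher and 1 that was lower, beside 8.48% of all genes, and 8 of the 11 were chaperones. Among them was Hsp90b1, the Hsp90 of the ER (200 ± 29.7 TPM in chow against 301 ± 14.8 TPM, adjusted p = 0.0506). The 1 lower member was Sesn2 (adjusted p = 0.0536). Marker sums stood apart here as well: hepatocyte markers summed to 102000 to 112000 TPM against 89800 to 101000 TPM in chow, with 1 of 9 passing as higher. Exocrine pancreas markers summed to 22.9 to 28.9 TPM against 10.5 to 18 TPM, with 0 of 8 passing. Their part in the chaperone differences was not tested.

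These calls rested on single libraries. The number of members that passed was 0 without chow replicate 2 or without chow-alternating replicate 1, 2 or 3, 1 without chow replicate 3 or 4, and 4 without chow replicate 1. Hspa5 kept its direction throughout, with adjusted p from 0.0249 to 0.115 over the 8 fits with 1 library left out. Without chow replicates 2 and 3, in which few genes held a large share, the Hspa5 difference was 0.65 (adjusted p = 0.0683) and that of Pdia4 0.60 (0.0739). The 1 member that then passed was Sesn2, which was lower (-0.92, adjusted p = 0.0467). The median of the 15 chaperones was then 0.51, that of all genes -0.18 and that of the ATF4 branch -0.32, against -0.08 with all libraries.

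In high-fat against chow livers 1 member fell in the chosen fit, a gene of the ATF4 branch, and none rose. Ppp1r15a (chr7:45522916-45526268), the stress-induced phosphatase subunit that reverses eIF2 phosphorylation, measured 11.4, 8.82, 8.82 and 12 TPM in chow and 5.30, 3.32, 4.13 and 5.49 TPM in high-fat livers. All high-fat libraries were below all chow libraries, and the log2 difference was -1.02 ± 0.20 (SE; limma, adjusted p = 0.0402), beside 1.06% of the 10960 genes tested. Without any 1 of the 8 libraries the adjusted p was 0.0517 to 0.18, so no library could be left out without losing the call. Without the 4 libraries with a large share in 20 genes the difference was -1.13 (adjusted p = 0.128). Over all 15 alternative fits the call was lost in 11, with adjusted p from 0.0022 to 0.187 in limma. The chow-alternating livers measured 6.28, 9.50, 6.99 and 7.5 TPM and the ketogenic-alternating livers 8.40, 6.53, 6.81 and 6.34 TPM, both above all high-fat libraries. The deposited entry of Ppp1r15a spans chr7:45522916-45523769, which is only part of the GENCODE gene given above. Tulp2 (1.3 TPM) overlaps Ppp1r15a on the opposite strand. Its constitutive counterpart Ppp1r15b had means of 29.4 ± 8.2 TPM in chow and 27.6 ± 6.29 TPM in high-fat livers (SD, n = 4 each).

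Among the chaperones the high-fat livers stood nearest to a call at Calr. Calr (chr8:84841850-84846934), the calcium-binding lectin calreticulin that holds glycoproteins until they fold, measured 276, 289, 268 and 280 TPM in chow and 412, 374, 359 and 394 TPM in high-fat livers. The 4 chow libraries were close together and below all high-fat libraries, but the pairwise test missed the threshold (0.46 ± 0.13, SE; limma, adjusted p = 0.181). With all 16 libraries in 1 fit Calr passed as higher (limma, adjusted p = 0.0331). Chow-alternating livers measured 467, 450, 397 and 347 TPM and ketogenic-alternating livers 321, 320, 372 and 290 TPM, so chow was the lowest group in every library. Pdia3, the disulfide isomerase that works with calreticulin, and Pdia4 also did not overlap in this comparison, which makes 4 such members with Ppp1r15a beside 8.22% of all genes. The median of the 15 chaperones was 0.31 beside -0.05 over all genes, and that of the ATF4 branch -0.14. The translocon median was -0.09 and turned to 0.09 without the 4 libraries with a large share in 20 genes.

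Neither alternating regimen gave a passing member against continuous high-fat feeding. In chow-alternating against high-fat livers 0 of 42 members tested passed, beside 0.0459% of all genes, and 9 had an unadjusted p below 0.05 in limma, beside 4.15% of all genes. Of the 43 members 37 were above 0. Creld2 had the smallest p of them (log2 difference 1.12 ± 0.25, SE, adjusted p = 0.492). Creld2, Hspa5, Syvn1, Ssr2 and Ppp1r15a did not overlap, all higher in chow-alternating livers, beside 3.02% of all genes. For Hspa5 the difference was 0.66 ± 0.21 (adjusted p = 1). The high-fat libraries were spread for this gene, and the 2 lowest, replicates 1 and 2, are among those with a large share in 20 genes. Without these 2 libraries the median of the 22 chaperone and translocon genes was 0.10 in place of 0.20, that of all genes -0.14 in place of 0.02, and that of the ATF4 branch -0.09 in place of 0.16.

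In ketogenic-alternating against high-fat livers 0 of 43 members passed, beside 0.0360% of all genes, and 4 had an unadjusted p below 0.05, beside 10% of all genes. These were Manf, which was lower, and Trib3, Atf5 and Ppp1r15a, which were higher. Trib3 measured 5.2, 3.26, 10.9 and 8.09 TPM in high-fat livers, below all ketogenic-alternating libraries (1.24 ± 0.28, SE; limma, adjusted p = 0.329). Trib3 and Ppp1r15a were the 2 members that did not overlap, beside 6.85% of all genes. The chaperone median was -0.13 and the ATF4 branch median 0.29, while 83% of all genes were above 0 and their median was 0.21. Quantile normalization, which took the median of all genes to 0.00847, gave -0.28 and 0.12.

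Against chow, Trib3 rose in ketogenic-alternating livers, the 1 member to pass beside 5% of the 11091 genes tested. It measured 5.46, 6.97, 6.88 and 8.08 TPM in chow, and its 2.22-fold higher level in ketogenic-alternating livers (16.5 ± 2.83 against 6.85 ± 1.07 TPM, SD, n = 4 each) gave an adjusted p of 0.00369 in limma. Trib3 passed in all 15 alternative fits, with adjusted p from 0.00322 to 0.0312. Sesn2, Ppp1r15a and Sec61g were lower and P4hb and Calr higher without overlap, and with Trib3 they were 6 members beside 13.3% of all genes. Adjusted p was 0.205 for Sesn2 and 0.118 for Ppp1r15a. Under quantile normalization both passed as lower (limma, adjusted p = 0.0131 for Sesn2 and 0.00843 for Ppp1r15a), while Trib3 stayed higher (0.0144). Of the 9 ATF4 branch genes 6 were above 0 and 3 below. Its median was 0.21, beside 0.15 over all genes, and -0.04 without chow replicates 2 and 3. The chaperone median was 0.11 and turned to -0.05 under quantile normalization and to -0.11 without those libraries.

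The comparisons share libraries, chow-alternating and chow entering several, so their results are not independent of each other. As a summary over libraries, each member's log2 value was set against its mean over the 16 libraries and averaged over a role. The 22 chaperone and translocon genes gave 0.25, 0.41, 0.32 and 0.15 in the 4 chow-alternating libraries and -0.15, -0.18, 0.09 and -0.22 in the ketogenic-alternating ones. The 9 ATF4 branch genes gave -0.21, -0.000195, -0.08 and 0.01 in the former and 0.72, 0.15, 0.21 and 0.07 in the latter. On both scores, with all 9 ATF4 branch genes counted, the alternating groups did not overlap, in opposite directions. On the ATF4 side the gap was narrow, between 0.0147 in chow-alternating replicate 4 and 0.0723 in ketogenic-alternating replicate 4. Over all genes tested the median difference between these groups was 0.19, and the scores were not corrected for it. The ATF4 score includes Asns, which was at 11.2 TPM in ketogenic-alternating replicate 1 and below the filter in this comparison. Without Asns, chow-alternating replicate 2 lies above ketogenic-alternating replicate 2 on that score. The separation on the ATF4 side thus depends on a gene that was not tested between these groups. The high-fat libraries were the widest on the ATF4 branch, at -0.42, -0.61, 0.35 and -0.22, and covered both alternating groups in part. Chow lay at -0.09, -0.23, -0.35 and 0.00398 on the chaperone side and at 0.18, -0.19, -0.16 and 0.20 on the ATF4 side.

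**Figure D4:**
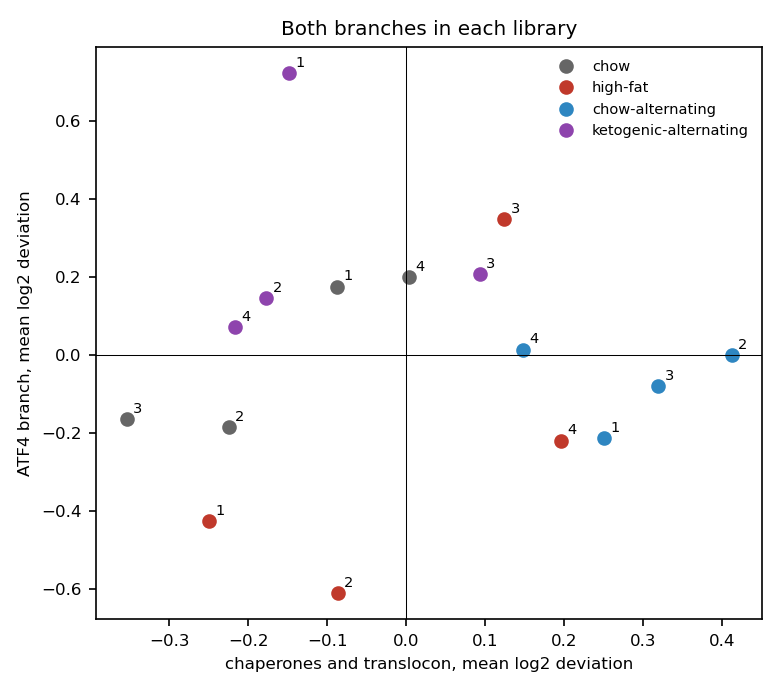
Each point is 1 of 16 libraries, numbered by replicate and coloured by diet; the horizontal axis is the mean deviation of log2(TPM + 1) over 22 chaperone and translocon genes, the vertical axis that over 9 ATF4 branch genes, each against the 16-library mean. Chow-alternating libraries lie at 0.15 to 0.41 horizontally and at or near 0 or below vertically, and ketogenic-alternating libraries lie at -0.22 to 0.09 and at 0.07 to 0.72.

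The remaining chaperones passed in none of the chosen fits. Without chow-alternating replicate 4, Sdf2l1 passed as higher in chow-alternating livers than in ketogenic-alternating (limma, adjusted p = 0.0349) and in chow livers (0.033). Sdf2l1, a partner of BiP and its J-domain proteins, had means of 23.4 ± 3.09 TPM in chow, 30.0 ± 4.85 in high-fat, 43.2 ± 14.0 in chow-alternating and 28.8 ± 4.47 in ketogenic-alternating livers (SD, n = 4 each). Dnajb11, a J-domain protein that delivers clients to BiP, had means of 43.8 to 45.6 TPM in the other 3 groups and 58.1 ± 8.26 TPM in chow-alternating livers. Pdia6, a further disulfide isomerase, ran from a mean of 141 TPM in chow to 173 TPM in chow-alternating livers. Canx, the membrane-bound relative of calreticulin, and Dnajc3, a J-domain protein also known as an inhibitor of PERK, varied more between replicates than between groups: Canx had means of 85.3 to 99.1 TPM with an SD of up to 29.5, and Dnajc3 means of 62.1 to 65.0 TPM with an SD of up to 24.6.

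No stress sensor passed in any pairwise comparison of the chosen fit. Without ketogenic-alternating replicate 4, Ern1 passed as higher in ketogenic-alternating than in chow-alternating livers (limma, adjusted p = 0.0175). Xbp1 (chr11:5520659-5525893), whose spliced mRNA encodes the factor made through IRE1, measured 135, 103, 98.5 and 130 TPM in chow, 102, 118, 161 and 188 TPM in high-fat, 139, 145, 154 and 153 TPM in chow-alternating and 170, 131, 158 and 136 TPM in ketogenic-alternating livers. The chow-alternating libraries were all above chow for this gene, and no other pair of groups separated. Of 4 annotated Xbp1 transcripts Xbp1-201 held 89.2% of the gene's TPM on average (82.7% to 94.4% over libraries). The smallest intron in the annotated transcripts was 300 bases, so the form made by IRE1, which lacks a far shorter stretch, was not represented and its level is not analysed here. The share of Xbp1-201 ran from 87.7% in chow to 91.4% in ketogenic-alternating livers. In 6 exact two-sided permutation tests of 4 against 4 libraries the p was 0.2 to 0.94 (Benjamini-Hochberg adjusted 0.72 to 0.94), where the smallest p such a test allows is 0.029. After adjustment over 6 tests a single comparison could not have passed.

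PERK's gene Eif2ak3 measured 5.13, 3.18, 3.11 and 5.16 TPM in chow and 5.84, 8.40, 7.12 and 6.70 TPM in chow-alternating livers, which did not overlap (0.66 ± 0.19, SE; limma, adjusted p = 0.152). High-fat livers, at 3.74, 4.01, 10.8 and 6.80 TPM, and ketogenic-alternating livers, at 8.12, 6.36, 7.81 and 4.68 TPM, overlapped both. Atf6, the precursor of the cleaved factor, measured 21.7, 8.25, 7.12 and 12.5 TPM in chow, 6.75, 11.5, 18.1 and 20.9 TPM in high-fat, 12.9, 11.9, 14.7 and 18.4 TPM in chow-alternating and 18.0, 15.1, 17.9 and 10.8 TPM in ketogenic-alternating livers. The spread within chow and within high-fat exceeded the distance between group means. Ern1 had means of 13.5 ± 6.45, 13.3 ± 3.85, 10.4 ± 1.47 and 14.0 ± 3.99 TPM in the same order of groups (SD, n = 4 each).

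Of the 8 ERAD genes Syvn1 was the 1 that passed anywhere. Herpud1 (chr8:94386438-94395377), a membrane protein that assembles the ligase complex and whose promoter above holds both an ER stress element II and an ATF4 element, was the most abundant of them. It measured 138, 141, 371 and 568 TPM in chow, 108, 233, 337 and 386 TPM in high-fat, 247, 508, 422 and 508 TPM in chow-alternating and 242, 253, 404 and 476 TPM in ketogenic-alternating livers. The groups overlapped throughout, and its F test gave an adjusted p of 0.543 in limma. Derl1, a channel-like protein of retrotranslocation, measured 76.9, 53.9, 40.7 and 66.5 TPM in chow, 44.3, 43.3, 68.2 and 64.2 TPM in high-fat, 61.7, 66.5, 67.4 and 64.5 TPM in chow-alternating and 75.4, 71.1, 68.0 and 64.9 TPM in ketogenic-alternating livers. Derl1 overlapped between all pairs of groups. Its relative Derl3 measured 3.59, 2.80, 4.92 and 9.89 TPM in chow, 10.1, 11.9, 2.60 and 30.0 TPM in high-fat, 3.37, 4.25, 5.43 and 1.87 TPM in chow-alternating and 2.41, 2.29, 11.5 and 4.32 TPM in ketogenic-alternating livers. It was the most uneven ERAD gene within the high-fat and alternating groups, and its highest value was high-fat replicate 4. Sel1l, the partner of the ligase, had means of 29.7 to 37.4 TPM, and the mannosidase-like Edem1 and Edem2 and the derlin Derl2 had group means of 35.9 to 41.3, 30.9 to 32.9 and 40.7 to 52.0 TPM.

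In the translocon only Sec61g passed in the chosen fits, and only between the alternating regimens. Its high-fat values, 65.7, 45.3, 61.8 and 58.0 TPM, and its chow values, 50, 92.1, 54.9 and 60.3 TPM, put the ketogenic-alternating group below all chow libraries. Ssr2, a subunit of the translocon-associated TRAP complex, measured 96.2, 106, 99.9 and 90.8 TPM in chow-alternating and 82.7, 70.4, 75.3 and 86.8 TPM in ketogenic-alternating livers, without overlap (-0.32 ± 0.09, SE; limma, adjusted p = 0.0709). In chow it measured 85.1, 94.1, 92.8 and 107 TPM and in high-fat livers 84.3, 82.3, 88.9 and 86.3 TPM. Ssr2 passed between the alternating regimens under quantile normalization (limma, adjusted p = 0.0439) and without ketogenic-alternating replicate 4 (0.0252). Sec61b, the most abundant channel subunit, measured 148, 197, 194 and 159 TPM in chow, 198, 137, 144 and 156 TPM in high-fat, 171, 188, 167 and 166 TPM in chow-alternating and 171, 158, 151 and 173 TPM in ketogenic-alternating livers. Its groups overlapped throughout. Ssr3 measured 108, 91.8, 74.3 and 91.4 TPM in chow, 72.0, 104, 96.6 and 94.2 TPM in high-fat, 98.9, 97.9, 108 and 110 TPM in chow-alternating and 105, 86.9, 104 and 91.2 TPM in ketogenic-alternating livers. Sec61a1, the pore subunit, had means of 59.6 to 74.0 TPM, Sec63, which couples the channel to BiP, 31.8 to 38.0 TPM, and Ssr1 12.1 to 13.1 TPM.

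Atf4, the factor that names the branch, and Ddit3, a target of it, passed in no comparison. ATF4 protein is known to be set largely at translation, which RNA does not show. Atf4 (chr15:80255184-80257541) measured 93.9, 78.3, 63.5 and 75.1 TPM in chow, 79.0, 64.8, 70.7 and 65.9 TPM in high-fat, 96.7, 99.2, 78.8 and 82.9 TPM in chow-alternating and 97.5, 75.2, 72.7 and 84.1 TPM in ketogenic-alternating livers. The groups overlapped, and 3 of the 4 chow-alternating libraries lay above the whole high-fat range. Ddit3 (chr10:127290774-127296288), the death-linked factor CHOP, measured 9.99, 7.65, 16.1 and 14.4 TPM in chow, 9.86, 10.8, 13.1 and 7.72 TPM in high-fat, 14.7, 12.7, 14.1 and 10.6 TPM in chow-alternating and 13.1, 7.46, 9.18 and 10.8 TPM in ketogenic-alternating livers. For Ddit3 all groups overlapped, and Mars (25.2 TPM) and another entry of the same name overlap its exons.

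Enzymes of the branch were scarce. Asns, asparagine synthetase, measured 1.29, 1.58, 0.266 and 2.04 TPM in chow, 0.602, 0.0, 7.61 and 0.310 TPM in high-fat, 0.446, 0.579, 0.747 and 0.977 TPM in chow-alternating and 11.2, 3.36, 2.85 and 0.498 TPM in ketogenic-alternating livers. Single libraries of 2 groups were far above the rest, and Asns did not reach the filter in the 3 comparisons with the chow-alternating group, so it was not tested there. Chac1, which degrades glutathione and whose promoter holds an ATF4 element, had means of 2.40 ± 1.33 TPM in chow, 3.49 ± 2.15 in high-fat, 3.23 ± 1.84 in chow-alternating and 4.10 ± 1.22 in ketogenic-alternating livers (SD, n = 4 each). Its groups overlapped in every comparison.

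Within groups, pairs of members varied together to different degrees. After each value was set against its group mean, the 105 pairs of chaperones had a median Pearson r of 0.491 over the 16 libraries, the 135 pairs of a chaperone with an ATF4 branch gene 0.13, the 36 pairs within the ATF4 branch 0.274 and the 6 pairs of sensors 0.781. All pairs of genes tested had a median of 0.244. With Hspa5 the deviations of Hyou1 gave r = 0.948, of Dnajb9 0.872, of Hsp90b1 0.825 and of Xbp1 0.819, whereas Calr gave 0.04 and Sdf2l1 0.02. These are descriptions without a test, since all points share the composition of 16 libraries. The share of TPM in the 20 highest genes moved with some members in the same way. Its deviations gave r = -0.94 with Derl1, -0.84 with Canx and -0.83 with Dnajc3. With the 8 members that passed between the alternating regimens they gave -0.54 for Hspa5, -0.51 for Pdia4, -0.44 for Hyou1 and -0.30 for Dnajb9. The rest of these were -0.175 for Syvn1, -0.16 for Creld2, 0.14 for Manf and 0.15 for Sec61g.

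Beyond the 43 members, 98 further genes of the same processes were listed, and most did not pass. Between the alternating regimens 4 of 93 tested passed, 3 as lower and 1 as higher. The total is near the 5.04% of all genes that passed in either direction, while 0.727% of all genes passed as lower. The lower ones were Spcs2, a signal peptidase subunit (32.5 ± 2.09 TPM in ketogenic-alternating against 43 ± 2.0 TPM in chow-alternating livers, SD, n = 4 each; limma, adjusted p = 0.0298), Tram1, a translocon partner (47.8 against 61.1 TPM, 0.0456), and Ostc, a subunit of oligosaccharyltransferase (44.6 against 63.2 TPM, 0.0363). The higher one was Fgf21, a liver hormone under both ATF4 and fasting control, at 37.6 ± 23.9 against 3.43 ± 1.03 TPM (adjusted p = 0.0089). Against chow, Fgf21 (adjusted p = 0.0194) and Gpt2, an alanine aminotransferase (247 ± 66.6 against 116 ± 31.3 TPM, 0.0176), rose in ketogenic-alternating livers, and Slc3a2, a shared subunit of amino acid carriers, fell (22.0 ± 1.93 against 33.1 ± 1.08 TPM, 0.0257). In the other 4 comparisons 0 of these genes passed in limma, although some had an unadjusted p below 0.05. These were 9 of 92 for high-fat against chow (11.6% of all genes), 3 of 92 for chow-alternating against high-fat (4.15%), 11 of 92 for ketogenic-alternating against high-fat (10%) and 12 of 93 for chow-alternating against chow (12.3%). Of 12 tRNA synthetases, classic ATF4 targets, 0 passed between the alternating regimens, 11 were above 0, and their median was 0.25 beside 0.19 over all genes.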

How the data were processed

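Liver RNA sequencing of 16 libraries, 4 per diet group, was analysed from the table the authors deposited. Per the series' design text, reads were mapped to mm10 with HISAT2 and quantified with RSEM 1.1.17 on Ensembl release 96, and edgeR 3.14.0 was used by the authors for their own comparisons. That text names FPKM, but each deposited column summed to a fixed total, so the values were treated as TPM deposited by the authors. TPM keeps no read depth, so no interval that needs counts is given.

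Values were transformed as log2(TPM + 1), that is with a pseudocount of 1. Genes that reached 1 TPM in 4 or more libraries of a comparison were fitted with limma 3.58.1 (R 4.3.3; intensity trend, no covariates, 8 libraries per comparison) and adjusted by Benjamini-Hochberg over all genes. An F test used all 16 libraries. The fit was checked on simulated data. Figures and summaries used Python 3.11.15, and gene positions came from GENCODE on mm10, identical to the table's for 31 of 43 members. Alternatives were a pseudocount of 0.1, no filter, a filter at 5 TPM, quantile normalization, 1 fit over 16 libraries, the replicate number as a block, each library left out, and the libraries with over 33% of TPM in 20 genes left out. The 43 members, the further pathway genes and the marker lists were chosen with earlier results of these data known. Values in every library are given for members that passed in any chosen fit, for the 2 of highest mean TPM and the 2 of largest difference of each role, and for Hspa5, Xbp1, Atf4 and Ddit3. Of the further genes, up to 3 passing per list are named. Ero1a and Ero1b were not matched by name and are not analysed here, and protein sequences were not used here.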

Additional observations from a re-analysis of the deposited data

Results flagged for a closer look

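In 11 of 172 groups of 4 libraries (43 members in 4 diets), 1 library stood apart from the other 3 by Dixon's criterion, which chance meets in about 5% of groups. In chow-alternating livers these were Pdia4 at 98.9 TPM, P4hb at 636 TPM and Atf5 at 219 TPM, all low in replicate 4, Dnajb9 at 58.4 TPM, high in replicate 3, and in replicate 2 Sec61g at 84.9 TPM, high, and Sec63 at 35.3 TPM, low. In chow livers they were Sdf2l1 at 18.7 TPM, low in replicate 3, and Ern1 at 23.2 TPM and Derl2 at 65.7 TPM, both high in replicate 1. In ketogenic-alternating livers Hyou1 at 37.3 TPM was high in replicate 3. In high-fat livers Asns at 7.61 TPM was high in replicate 3, where the other libraries were under 1 TPM.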

How the results depend on the processing

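No direction of a passing member reversed under any alternative run, and the counts for chow-alternating and ketogenic-alternating against high-fat stayed at 0. With no filter on low values the members that passed numbered 0 for high-fat against chow (1 in the chosen fit), 2 between the alternating regimens (8), 0 for chow-alternating against chow (2) and 3 in the F test (7), with more genes tested. With all 16 libraries in 1 fit they numbered 2, 2 and 4 for the same 3 comparisons. A filter at 5 TPM gave 4 for chow-alternating against chow, and quantile normalization gave 5 there and 3 for ketogenic-alternating against chow (1). Quantile normalization also moved the median of the 22 chaperone and translocon genes in ketogenic-alternating against high-fat livers from -0.06 to -0.25. Without the libraries with over 33% of TPM in 20 genes, 0 passed for high-fat against chow and 1, Sesn2, for chow-alternating against chow. With 1 library left out, the counts ran from 0 to 0, from 2 to 13 and from 0 to 4. The replicate block gave 0 for high-fat against chow, 4 between the alternating regimens and 4 in the F test, and changed no other count by over 1.5 times. Same-numbered libraries deviated from their group means with r from -0.58 to 0.386. With 4 libraries per group this cannot settle whether the numbers pair the samples, and the chosen fits treat them as unpaired. Apart from the settings that test more or fewer genes or libraries, the cause of each change was not tested. TPM gives no depth, so the precision of members near 1 TPM, such as Asns, is unknown.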
